A study of Mus musculus with 6 samples.

Results

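Hearts of 2 mouse genotypes that the study used as controls for its Id conditional knockout were set against each other, gene by gene. One heart carried Tie2Cre, had no intact Id1 allele and kept 1 of its Id3 alleles (Tie2Cre+Id1-/-Id3+/-, called Id1-null here). The other had no intact Id3, 1 floxed and 1 wild-type Id1 allele, and no Tie2Cre in its label (Id1F/+Id3-/-, called Id3-null here). Each was measured on 1 array. Differences are the deposited log2 value of the Id1-null heart minus that of the Id3-null heart, so that a difference of 1 is 2-fold. A gene was compared where the higher of its 2 values was at least 6. This kept 11244 of the 19938 named genes, the last gene inside being Ppp1r26 at 6.001 and the first outside Cep295 at 5.999. The 8694 genes under that floor included 18 that were 2-fold apart.

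All 6 samples of the study were heart RNA from mice of 6 months, labelled P180, and the labels do not say which chambers were taken. Beside the compared pair there was 1 wild-type heart (WT), 1 conditional knockout (Tie2Cre+Id1F/-Id3-/-, Id cKO), and 1 more Id cKO heart each with and without recombinant mouse IGFBP3. Tie2Cre acts in endothelial and blood cells, so the floxed Id1 allele of Id cKO can stay intact in heart muscle. The Id1-null heart lacked Id1 in every cell. The number of animals behind a sample is not in the labels. WT, Id1-null and Id cKO shared 1 date code in the labels, the Id3-null heart had another, and what the codes date is not stated. Tie2Cre, Id1, Id3 and the date code all differed between the compared hearts, so their effects cannot be told apart, and with 1 array a genotype no difference has a replicate check or a p-value.

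Id proteins are helix-loop-helix proteins without a DNA-binding region. They pair with E proteins such as Tcf3, Tcf4 and Tcf12, and the pair cannot bind the E-box, the DNA letters CANNTG that E proteins and their tissue-specific partners recognise. In the developing heart Id1 and Id3 are made in endocardium, epicardium and cushion mesenchyme, and not in the muscle of the ventricle wall. Loss of either gene alone leaves mice viable.

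The targeted genes followed the labels. Id1 was at 8.10 in the Id3-null and 8.14 in the WT heart, at 6.41 in Id1-null and 6.48 in Id cKO. Thus the Id1-null heart was 3.25-fold under the Id3-null heart for Id1. Both incubated Id cKO hearts had 5.70. Their arrays shared 1586 equal probe-set values, where other pairs of arrays shared 0 to 32. The reason was not tested, so the equal Id1 values are not read as agreement. Id3 was at 7.32 in Id1-null and 7.18 in WT, at 5.02 in Id3-null and 4.69 in Id cKO, with 4.13 under IGFBP3 and 3.86 without it. Its level in Id1-null lay beside that of WT although 1 Id3 allele was missing. The position of the probes within each gene, inside or outside the deletion, was not analysed here. Of 18 Id and other helix-loop-helix genes, 17 were compared and no further member was 2-fold apart. Id2, another inhibitor, was at 7.58 in Id1-null, 6.86 in Id3-null, 6.83 in WT and 8.07 in Id cKO. The E protein genes were close between the hearts, with differences of -0.10 for Tcf3, -0.32 for Tcf4 and 0.16 for Tcf12. Igfbp3, which stood at 11.60 in Id cKO, was at 7.81 in Id1-null and 7.89 in Id3-null.

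The hearts were at least 2-fold apart at 136 of 11244 genes (1.21%), 117 of them higher in Id1-null (1.04%) and 19 lower (0.169%). The median difference over all genes was -7e-05 and their SD 0.32, and 49.97% of them were positive. These shares over all genes are the background for the list counts below. With a limit of 1.5-fold, 388 genes (3.45%) were higher and 151 (1.34%) lower, and with one of 3-fold 39 (0.347%) and 3 (0.0267%). Of the higher genes, 73 were higher by 1 to 1.5, 18 by 1.5 to 2, 18 by 2 to 3, and 8 by more than 3 on the log2 scale. Their median level was 8.35 in Id1-null against 6.58 in Id3-null, 6.74 in WT and 6.91 in Id cKO. The choice of these genes fixes that Id1-null lies over Id3-null, and only the levels of WT and Id cKO are free of it. For 42 of the 117 the Id3-null value was under the floor of 6, so they were compared through Id1-null alone and the size of their difference is uncertain. With both values at least 6 there were 75 higher and 14 lower genes. The 19 lower genes had a median level of 6.60 in Id1-null, 7.92 in Id3-null, 7.50 in WT and 6.88 in Id cKO. Set against WT, 203 genes (1.77%) were 2-fold apart for Id1-null and 57 (0.501%) for Id3-null. For Id1-null these were 177 higher (1.55%) and 26 lower genes (0.227%), and for Id3-null 24 higher (0.211%) and 33 lower (0.29%), or 36 and 29 once the arrays were centred on their medians. Array medians lay between 5.73 and 5.83 on these 4 arrays and at 4.45 and 4.51 on the incubated pair, which was scaled lower, so levels are read across the 4 only. Xist, expressed from the silenced X in females, was at 8.15 in Id1-null and 8.61 in Id3-null against 4.03 in WT. The Y-linked Eif2s3y was at 3.03 and 2.73 against 7.98, so both compared hearts had a female pattern and WT a male one. The counts against WT thus carry sex as well as genotype, and that for Id3-null also the date code. Of 7 compared sex-linked genes, 2 were 2-fold higher and 3 lower than WT in each of the 2 hearts.

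**Figure D1:**
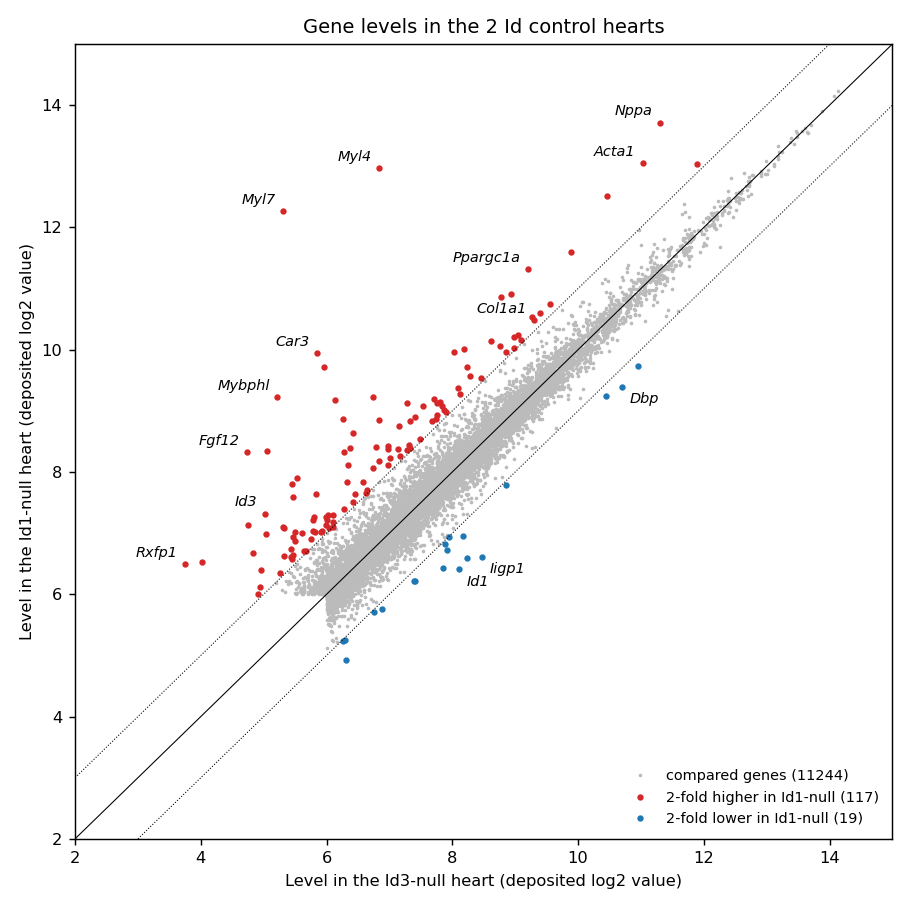
Each point is 1 of the 11244 compared genes, with its deposited log2 level in the Id3-null heart on the horizontal axis and in the Id1-null heart on the vertical axis. The solid line marks equal levels and the dotted lines a 2-fold difference. Myl7 and Myl4 lie far above the line, and 117 red points (higher in Id1-null) face 19 blue ones.

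The single genes furthest apart, Myl7 and Myl4, are genes of atrial muscle. Of 18 listed atrial genes 16 were compared, and 7 of these were at least 2-fold higher, where 1.04% of all genes were. This list, like the others, was drawn up with earlier results of these data known, so such shares are a description only. The median difference of the 16 was 0.91, and 15 of the 16 were positive, where 49.97% of all compared genes were. Over the 13 with both values at least 6, the median was 0.90 and 5 were 2-fold higher. Myl7, the regulatory light chain of atrial myosin, was at 12.27 in Id1-null and at 5.31 in Id3-null, 5.28 in WT, 5.38 in Id cKO, and 4.68 and 4.02 in the treated and untreated hearts. Its level was thus high on 1 array and below the array median on the other 3 like-scaled arrays, where a low value cannot be told from background, so no fold is given. Myl4, the essential light chain of atrial myosin, was at 12.97 in Id1-null against 6.83 in Id3-null, 6.69 in WT, 6.81 in Id cKO, 5.86 and 5.25. That is 70.4-fold, and no other array came near. Nppa, which encodes the atrial natriuretic peptide and is also made by stressed ventricle muscle, had another pattern. It was at 13.71 in Id1-null, 11.30 in Id3-null, 10.29 in WT and 14.03 in Id cKO, so 2 hearts were high for it. Sln, the atrial inhibitor of the calcium pump, was at 7.13 in Id1-null and between 4.70 and 5.18 on the other 3 like-scaled arrays.

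The stretch of 250 bases before the start of 3 of these genes is shown because Id proteins act through the E-box, for Myl7 and Myl4 as the genes furthest up and for Nppa as one high in both Tie2Cre hearts. The sequences are from RefSeq on GRCm38.p6, written along the strand of the gene with CANNTG in capitals. They lie at chr11:5898783-5899032 (minus strand) for Myl7, chr11:104550413-104550662 (plus strand) for Myl4 and chr4:148000472-148000721 (plus strand) for Nppa.
Myl7: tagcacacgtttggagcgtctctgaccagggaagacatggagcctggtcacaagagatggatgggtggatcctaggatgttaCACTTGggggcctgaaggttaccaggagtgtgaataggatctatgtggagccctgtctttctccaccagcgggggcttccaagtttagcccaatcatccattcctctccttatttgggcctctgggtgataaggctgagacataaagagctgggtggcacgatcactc
Myl4: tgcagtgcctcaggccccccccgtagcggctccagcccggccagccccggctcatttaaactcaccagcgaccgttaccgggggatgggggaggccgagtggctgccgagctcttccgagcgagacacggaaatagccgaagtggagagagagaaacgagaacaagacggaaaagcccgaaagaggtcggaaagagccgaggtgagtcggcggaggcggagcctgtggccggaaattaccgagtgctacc
Nppa: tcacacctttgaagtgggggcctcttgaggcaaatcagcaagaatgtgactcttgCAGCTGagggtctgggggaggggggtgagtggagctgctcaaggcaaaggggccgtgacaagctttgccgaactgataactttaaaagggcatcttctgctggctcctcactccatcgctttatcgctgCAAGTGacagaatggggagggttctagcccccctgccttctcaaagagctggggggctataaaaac
Myl7 had 1 E-box in this stretch, Nppa had 2 and Myl4 none. These letters, which match on both strands at once and overlapped no other motif searched, occurred in 66.2% of all 32851 promoters of this length. They occurred in 61.0% of the 100 promoters of 81 higher genes and in 46.2% of the 13 promoters of 12 lower genes that the table holds. Myl7 also had a CArG box, the motif of serum response factor in muscle genes, which 4.00% of the higher genes' promoters and 1.47% of all promoters held.

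Further listed atrial genes were higher too. Dkk3, a secreted protein of the Dickkopf family, was at 9.18 in Id1-null and between 6.10 and 6.72 on the other 3 like-scaled arrays. Stard10, a lipid transfer protein, was at 10.86 in Id1-null, 8.77 in Id3-null, 9.08 in WT and 7.53 in Id cKO. Pam, which amidates peptide hormones and is abundant in atrial granules, was at 13.04, 11.89, 11.57 and 12.41 in the same order. Below the 2-fold limit were Tbx5 (0.91), Gja5 (0.90), Myl1 (0.79) and Nr2f2 (0.71), of which Tbx5 and Nr2f2 are transcription factors of the atrium. Potassium channel genes of the atrium differed little, by 0.29 for Kcnj3, 0.25 for Kcnk3 and 0.06 for Kcnj5. Hey1, an atrial repressor, was lower by 0.46 (6.79 against 7.25). Bmp10, a growth factor that marks mostly the right atrium in adults, was under the floor on every array, with 3.98 in Id1-null and 4.30 in Id3-null.

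A few unlisted genes went with the light chains. Mybphl, a myosin-binding protein made in atrial muscle, was at 9.23 in Id1-null and between 5.12 and 5.22 on the other 3 like-scaled arrays. Sbk3 and Sbk2, SH3-binding kinases of neighbouring loci, were at 9.72 and 8.39 in Id1-null against 5.95 and 6.37 in Id3-null. Fgf12, which binds the sodium channel inside the cell, was at 8.33 against 4.73, and at 5.20 in WT and 4.77 in Id cKO. In each of these the Id1-null array was the highest of the like-scaled arrays.

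**Figure D2:**
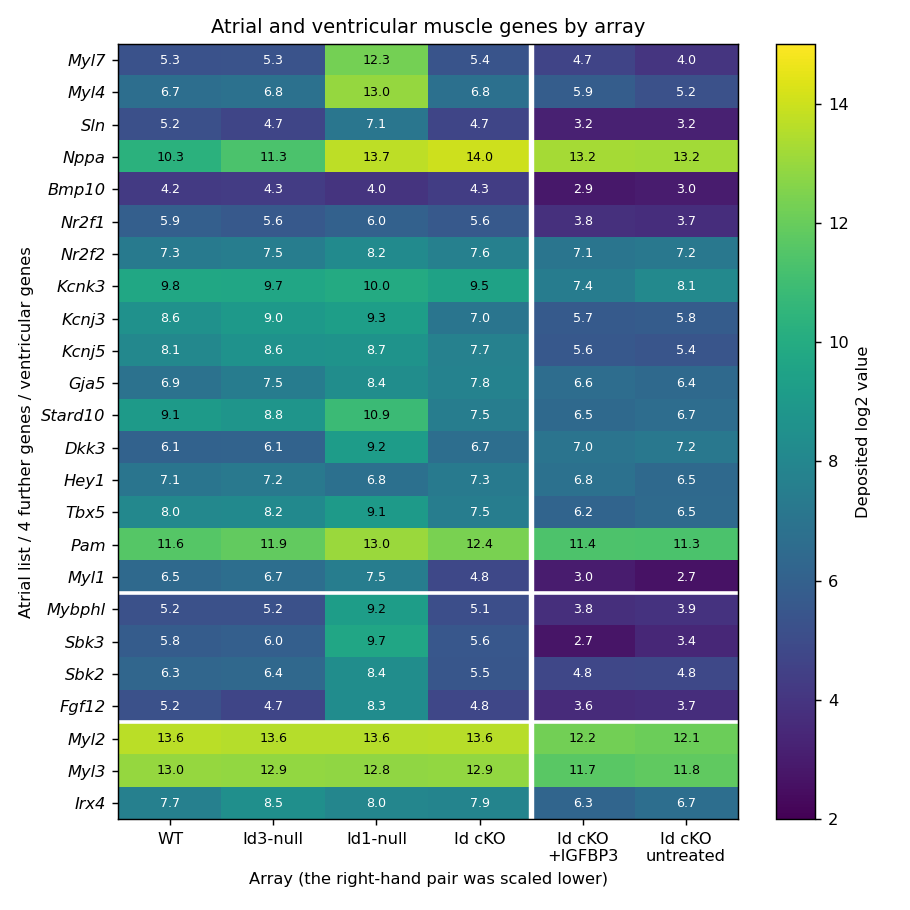
Deposited log2 levels, printed and coloured, of the 17 atrial list genes on the array, 4 further genes and 3 ventricular genes, in rows, on the 6 arrays, in columns. Myl7, Myl4, Mybphl, Sbk3 and Fgf12 are high in the Id1-null column alone, while Myl2 stands at 13.6 in each of the first 4 columns.

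Genes of ventricular and general heart muscle were close between the hearts. None of 9 ventricular genes was 2-fold apart (median -0.11). Myl2, the ventricular partner of Myl7, was at 13.57 in both hearts, and Irx4, a ventricular transcription factor, was lower by 0.52. None of 18 sarcomere genes was 2-fold apart either (median -0.04). The one furthest from 0 was Tcap, the titin cap of the Z-disc, at 11.68 in Id1-null and Id cKO (11.67) against 12.25 in Id3-null and 12.24 in WT. Of 8 compared nodal and conduction genes none was 2-fold apart, and Hcn4, the pacemaker channel, was lower by 0.32. Summed on the linear scale and put back in log2, the atrial list came to 15.32 in Id1-null, 13.25 in Id3-null, 12.86 in WT and 14.58 in Id cKO, where Nppa alone stood at 14.03. The ventricular list came to 15.03, 15.10, 15.07 and 14.98. The labels give the tissue as heart and do not say which chambers a sample held. The share of atrial muscle in each sample was not measured, its part in the other differences was not tested, and in such bulk RNA more cells of a type and more RNA per cell cannot be told apart.

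Genes that mark the fetal or loaded heart were partly higher in Id1-null. Of 13 compared, 4 were at least 2-fold higher, where 1.04% of all genes were. None was 2-fold lower, and the median was 0.71. Acta1, skeletal actin, was at 13.05 in Id1-null and 13.15 in Id cKO against 11.03 in Id3-null and 10.86 in WT. Myh7, the slow myosin heavy chain, was at 10.75 and 11.30 against 9.55 and 9.46. For both genes the 2 Tie2Cre hearts lay over the other 2 with a wide gap. Uck2, a pyrimidine salvage kinase, was likewise at 10.06 and 10.41 against 8.76 and 9.14. Other members were highest in Id cKO. Nppb, the B-type natriuretic peptide gene, was at 10.34 in Id1-null, 9.76 in Id3-null, 12.35 in Id cKO and 9.04 in WT. Ankrd1, a stretch-response protein of the sarcomere, was at 12.23, 12.11, 13.39 and 11.56, and Nmrk2, a nicotinamide riboside kinase, at 7.13, 6.61, 10.54 and 6.49. Myh6 and Actc1, the main adult myosin and actin genes, differed by -0.03 and 0.07.

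Among calcium-cycling genes 2 of 14 were 2-fold higher, Sln (above), which was under the floor in Id3-null, and Casq1. Casq1, the skeletal calsequestrin, was at 8.83 in Id1-null against 7.32 in Id3-null, 6.87 in WT and 6.93 in Id cKO. The median of the 14 was 0.01, and Atp2a2, the calcium pump, was at 13.91 and 13.88. Of 21 ion channel and connexin genes 1 was 2-fold higher and none lower (median -0.16). It was Kcne1, a potassium channel subunit, at 7.04 against 5.79 in both Id3-null and Id cKO and 5.32 in WT. Its Id3-null value was under the floor, so it was compared through Id1-null alone and had to be higher. Gja1, the main connexin of ventricle muscle, was lower by 0.97. It stood at 10.63 in Id1-null and 10.73 in WT, and at 11.60 and 11.66 in the 2 hearts without Id3. Scn4b, a sodium channel subunit, was at 6.37 in Id1-null and 6.24 in Id cKO, 7.16 in Id3-null and 8.18 in WT.

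Several white fat genes were higher in Id1-null, most of them from a low level. Of 12 compared members 7 were 2-fold higher and none lower (median 1.20), but 6 of these 7 were under the floor in Id3-null and had to differ to be compared. Over the 6 members with both values at least 6, the median was 0.09 and 1, Scd1, was 2-fold higher. Over all 14 members on the array it was 0.76. Car3, a carbonic anhydrase abundant in fat and slow muscle, was at 9.95 in Id1-null against 5.85 in Id3-null, 4.86 in WT and 4.99 in Id cKO. Adipoq, the fat hormone adiponectin, was at 6.53 against 4.02, 4.04 and 4.38. Both were high on the Id1-null array alone. The lipid droplet proteins Plin1 (1.47) and Cidec (1.43), the desaturase Scd1 (1.44), the hormone resistin (Retn, 1.30) and the gluconeogenic enzyme Pck1 (1.11) completed the 7. Members that heart muscle and capillaries also make were close, with 0.09 for Fabp4, -0.11 for Lpl and 0.02 for Pparg. Leptin (Lep) was under the floor. Of 5 compared brown fat genes none was 2-fold apart, and Ucp1 was under the floor. Summed, the white fat list came to 14.00 in Id1-null and 13.89 in Id3-null, with Lpl alone at 13.01 and 13.12. Cyp2e1, a cytochrome P450 of liver and fat, was at 8.34 against 5.05, 4.61 and 4.65. Agt, the precursor of angiotensin, was at 9.22 in Id1-null, 6.74 in Id3-null, 7.67 in WT and 5.95 in Id cKO. How much fat came with each heart was not measured.

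**Figure D3:**
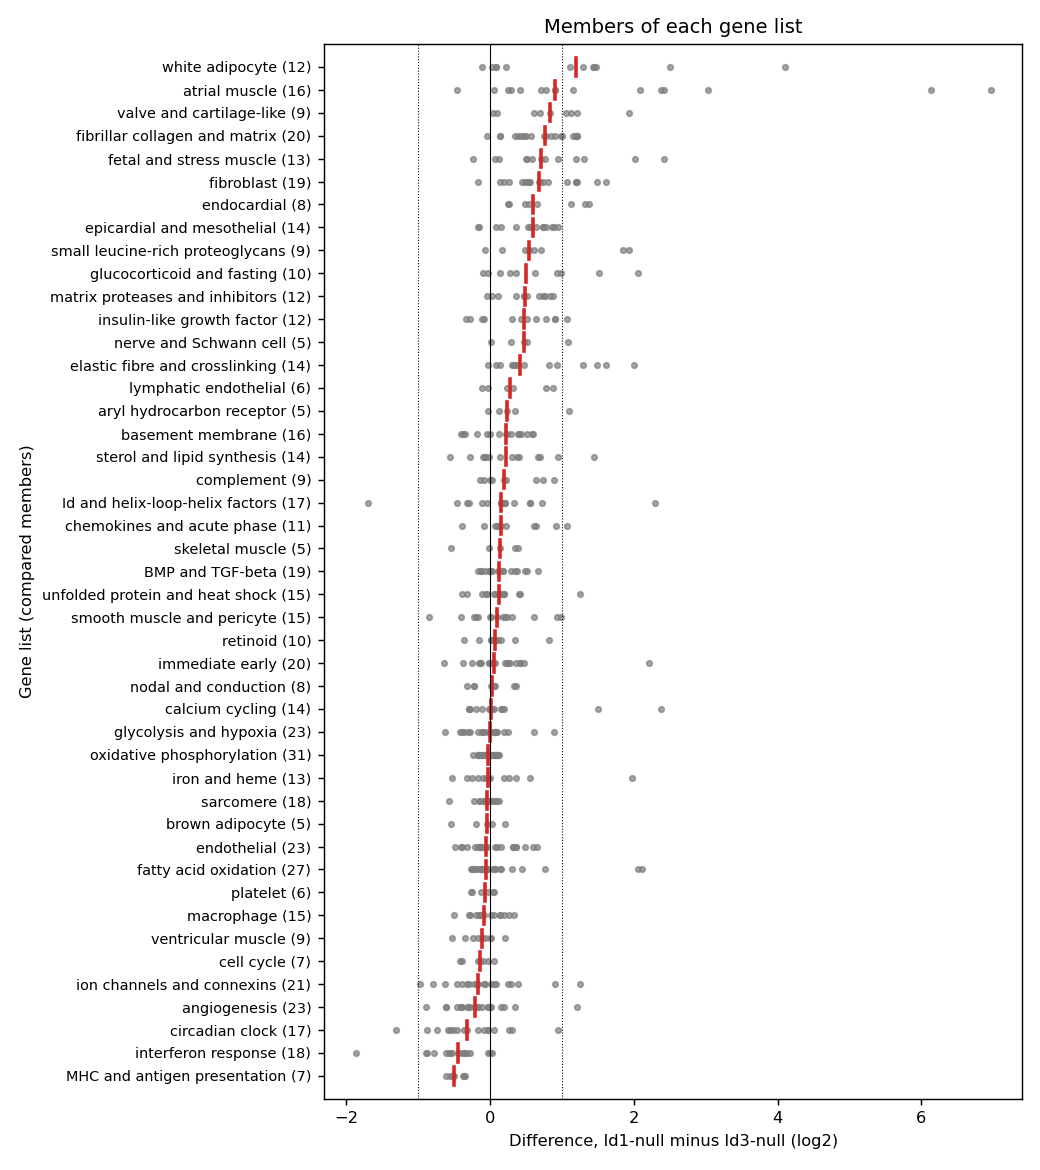
Grey points are compared members of each gene list with at least 5 of them (number in brackets), placed by their difference, Id1-null minus Id3-null, on the log2 scale, and red bars are list medians. The dotted lines mark 2-fold. The medians of the white adipocyte and atrial lists are 1.20 and 0.91, and 0.09 and 0.90 over members with both values at least 6. Those of the interferon and MHC lists are -0.44 and -0.50.

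Energy genes as a body were level. None of 31 oxidative phosphorylation genes was 2-fold apart, and their differences ran only from -0.24 to 0.13 (median -0.02). Of 27 fatty acid oxidation genes 2 were higher and none lower (median -0.05). Ppargc1a, the coactivator that drives mitochondrial genes, was at 11.31 in Id1-null and 10.49 in WT against 9.20 in Id3-null and 9.22 in Id cKO. Pdk4, which closes pyruvate dehydrogenase in fasting, was at 12.52 and 12.28 against 10.46 and 11.28. Here the 2 hearts that keep Id3 were the high ones, while enzymes of the pathway such as Acadm (-0.14), Hadha (-0.11) and Cpt2 (-0.25) were close. Ucp3, an uncoupling protein, was higher by 0.77. Ogdhl, an oxoglutarate dehydrogenase, was at 8.87 in Id1-null, 6.27 in Id3-null, 9.87 in WT and 8.07 in Id cKO, so that the Id3-null heart was the low one. None of 23 glycolysis and hypoxia genes was 2-fold apart (median 0.00). The largest difference there was 0.89 for Pfkp, the platelet-type phosphofructokinase.

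Genes that answer to fasting and glucocorticoids included 2 of 10 higher members, Pdk4 and the metallothionein gene Mt2, and none lower (median 0.50). Mt2 was at 10.14 in Id1-null and 9.73 in WT against 8.62 in Id3-null and 8.86 in Id cKO. Mt1 went the same way by 1.00, just under the limit. Fkbp5, a glucocorticoid-induced chaperone, was at 8.63 in Id1-null, 7.70 in Id3-null, 8.96 in WT and 8.12 in Id cKO. Other glucocorticoid targets differed little, with 0.14 for Sgk1 and -0.03 for Tsc22d3.

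Matrix genes and fibroblast markers were higher. Of 20 fibrillar collagen and matrix genes 5 were 2-fold higher and none lower (median 0.77), where 1.04% of all genes were higher. So were 6 of 19 fibroblast markers (median 0.68), with Col1a1, Col1a2 and Col3a1 in both lists. Col1a1, a chain of type I collagen, was at 10.49 in Id1-null and 10.50 in Id cKO against 9.30 in Id3-null and 8.74 in WT. Col3a1, the chain of type III collagen, was at 10.24, 9.72, 9.04 and 8.22 in that order. For both, the Id3-null heart lay between WT and the Tie2Cre hearts. Postn (periostin), a matricellular protein of activated fibroblasts, was at 8.83 in Id1-null, 10.55 in Id cKO, 7.67 in Id3-null and 7.11 in WT. Thbs1, an angiogenesis inhibitor, was at 8.22, 8.97, 7.01 and 7.55. Pan-fibroblast markers were higher by less, Pdgfra by 0.80, Dcn by 0.55, Tcf21 by 0.55 and Ddr2 by 0.15. Pdgfra and Tcf21 were lower in Id cKO (7.88 and 6.50) than in Id1-null (9.20 and 7.46), whereas Col1a1 was at a like level in these hearts.

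Elastic fibre genes followed, with 4 of 14 at least 2-fold higher and none lower (median 0.42), where 1.04% of all genes were higher. Eln, tropoelastin, was at 8.85 in Id1-null, 6.84 in Id3-null, 7.36 in WT and 7.93 in Id cKO. The microfibril proteins Mfap4 and Mfap5 were higher by 1.62 and 1.49, and Lox, the crosslinking oxidase, by 1.30. Lox was low in Id3-null (5.32, under the floor) against 6.08 in WT, 6.62 in Id1-null and 6.94 in Id cKO. Of 9 small leucine-rich proteoglycans Fmod (1.94) and Podn (1.85) were 2-fold higher, both collagen-binding proteins. Fmod was under the floor in Id3-null (5.04), and Podn was at 9.12 in Id1-null against 6.91 to 7.42 on the other 3 like-scaled arrays. None of 16 basement membrane genes (median 0.23) or of 12 matrix protease and inhibitor genes (median 0.49) was 2-fold apart. Among BMP and TGF-beta genes none of 19 was either (median 0.13), and the ligand Tgfb3 was the furthest at 0.68.

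Genes of valves and cartilage-like tissue were all positive, 9 of 9, and 4 were 2-fold higher (median 0.83, or 0.72 over the 6 with both values at least 6): Fmod, Cilp2 (1.21), the pentamer-forming matrix protein Comp (1.13) and the large proteoglycan Vcan (1.06). Sox9 (0.10) and Col2a1 (0.05), which mark cartilage, were not among them, and Acan and Hapln1 were under the floor. For 3 of the 9, with Fmod and Comp among them, the Id3-null value was under the floor, so these had to be positive. Of 14 epicardial and mesothelial genes none was 2-fold apart, but 7 were at least 1.5-fold higher, where 3.45% of all genes were (median 0.60). Of the 14, 9 were under the floor in Id3-null, 6 of the 7 among them, and over the other 5 the median was 0.08. The 7 included the uroplakin Upk3b (0.94), the keratins Krt19 (0.89) and Krt18 (0.74), and Lrrn4 (0.87). Wt1, an epicardial transcription factor, was lower by 0.16. Of the smooth muscle and pericyte genes none of 15 was 2-fold apart (median 0.10). Cnn1 and Tagln, contractile proteins, were higher by 0.99 and 0.94, and Abcc9, a channel subunit of pericytes, lower by 0.84. Myl9, a smooth muscle light chain outside these lists, was at 10.01 in Id1-null, 9.32 in Id cKO, 8.19 in Id3-null and 7.59 in WT. The part of tissue make-up in the atrial, valve, fat, mesothelial and fibroblast lists was not tested.

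Endothelial genes, where Tie2Cre acts, were near level. None of 23 was 2-fold apart, 10 were positive and 13 negative (median -0.05). Pecam1 (0.60), Vwf (0.65) and Eng (0.49) were higher and Egfl7 (-0.49) and Kdr (-0.39) lower, within a range that did not reach 2-fold. Of 8 endocardial genes all were positive and 3 were 2-fold higher (median 0.60), where 49.97% and 1.04% of all compared genes were. For 1 of the 8 the Id3-null value was under the floor, so it had to be positive. Npr3, the natriuretic peptide clearance receptor of the endocardium, was at 9.13 in Id1-null, 7.75 in Id3-null, 8.09 in WT and 8.13 in Id cKO. Plvap, the diaphragm protein of fenestrated vessels, was at 8.06, 6.74, 7.33 and 7.98, and Cytl1, a small secreted protein, at 8.45, 7.32, 7.89 and 6.62. In each of the 3 the Id1-null heart was highest and the Id3-null or the Id cKO heart lowest. Nfatc1, the endocardial transcription factor, differed by 0.26.

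Among angiogenesis genes 1 of 23 was 2-fold higher, Thbs1, while 18 were negative (median -0.21), where 49.97% of all compared genes were positive. Dll4, the Notch ligand of tip and arterial cells, was at 6.87 in Id1-null, 7.75 in Id3-null, 7.36 in WT and 8.73 in Id cKO. Nrp2, a co-receptor of VEGF and semaphorins, was at 7.62 in Id1-null and 7.64 in WT against 8.23 and 8.89 in the 2 hearts without Id3. The chemokine Cxcl12 was lower by 0.61. Vegfa was at 10.02 in Id1-null, 10.03 in Id3-null and 10.96 in Id cKO. Of 6 lymphatic genes none was 2-fold apart, with Lyve1, the hyaluronan receptor, furthest at 0.88. In the insulin-like growth factor family 1 of 12 was 2-fold higher, Igfbp5 (9.53 against 8.46), and Igfbp4, Igfbp6 and the receptor Igf1r were higher by 0.91, 0.91 and 0.78.

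Interferon-induced genes were lower in Id1-null. Of 18 compared, 16 were negative and 2 positive (median -0.44), where 49.97% of all compared genes were positive. Only 1 passed 2-fold. For 4 of the 18 the Id1-null value was under the floor, so these had to be negative. Over the 14 with both values at least 6 the median was -0.41. Iigp1, an immunity-related GTPase, was at 6.61 in Id1-null, 8.48 in Id3-null, 7.58 in WT and 7.43 in Id cKO, and had the largest lower difference of all genes (3.65-fold). Ifit1 and Ifit3, which bind viral RNA or its complexes, were lower by 0.89 and 0.78, and Gbp3, a guanylate-binding protein, by 0.88. Ifit1 was at 5.77 in Id1-null and 5.73 in WT but 6.66 in Id3-null and 6.34 in Id cKO. Against WT the list's median was -0.03 for Id1-null and 0.40 for Id3-null. The 7 genes of MHC and antigen presentation were all negative (median -0.50), against the same share over all genes, and none was 2-fold apart. B2m, the light chain of MHC class I, was at 11.00 in Id1-null, 11.50 in Id3-null, 11.38 in WT and 12.00 in Id cKO. The class II gene H2-Eb1 was lower by 0.55 and the peptide transporter Tap1 by 0.61.

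Immune cell markers were close between the hearts. None of 15 macrophage genes was 2-fold apart (median -0.08), and Csf1r, the macrophage growth factor receptor, differed by 0.06. Of 14 lymphocyte genes on the array 1 was compared and of 11 neutrophil genes none, as the rest were under the floor. Among chemokines and acute-phase genes Ccl6 was 2-fold higher (8.35 in Id1-null, 7.28 in Id3-null, 7.32 in WT, 6.10 in Id cKO), and the iron-binding lipocalin Lcn2 was higher by 0.92.

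Clock genes differed in a mixed way. Of 17, 13 were negative (median -0.32), where 49.97% of all compared genes were positive, and 1 passed 2-fold. Dbp, a transcription factor whose level swings strongly over the day, was at 10.70 in Id3-null and at 9.39 in Id1-null, 9.20 in WT and 8.86 in Id cKO, so the Id3-null heart stood out. Per3 and Ciart, repressors with a like daily phase, were lower by 0.87 and 0.74. Arntl, whose product drives Dbp and whose own level peaks at the opposite time, was higher by 0.95 (6.75 against 5.79, with 7.02 in WT and 7.33 in Id cKO). The hour at which each heart was taken is not given in the labels, and the Id3-null heart is also the one with its own date code. Among immediate early genes 1 of 20 was 2-fold higher, the orphan receptor gene Nr4a3, at 8.64 in Id1-null against 6.42 in Id3-null, 6.85 in WT and 7.14 in Id cKO. Fos, Egr1 and Nr4a1 differed by 0.41, 0.37 and -0.37.

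Iron uptake and amino acid genes held a few more. Tfrc, the transferrin receptor, was at 10.91 in Id1-null and 10.53 in Id cKO against 8.93 in Id3-null and 7.54 in WT, and was the only 1 of 13 iron and heme genes past 2-fold. Ferritin (Fth1) differed by -0.06. Asns, asparagine synthetase, was at 7.84 and 7.57 in the 2 Tie2Cre hearts against 6.58 and 6.22, while its activator Atf4 (0.05) and the other amino acid response genes Trib3 (0.07) and Chac1 (-0.32) did not pass 2-fold. Of 14 sterol and lipid synthesis genes 1 was higher, Scd1, with Fasn (fatty acid synthase) at 0.94. Of 7 compared cell cycle genes none was 2-fold apart. Cyp1b1 was 1 of 5 aryl hydrocarbon receptor genes and was higher by 1.11, with its Id3-null value (5.92) under the floor.

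The remaining genes furthest up included Rxfp1, the relaxin receptor, at 6.50 in Id1-null and between 3.57 and 3.85 on the other 3 like-scaled arrays. Ahsg (fetuin-A), a liver plasma protein, was at 7.91 against 5.53 in Id3-null, 6.29 in WT and 6.22 in Id cKO. Tmem163, a zinc transporter, was at 7.80 against 5.34 to 5.60.

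Beside Iigp1, Id1 and Dbp, the genes furthest down were a varied set. Ephb1, an ephrin receptor, was at 8.24 in Id3-null and between 6.49 and 6.88 on the other 3 like-scaled arrays, so its difference of -1.64 came with a high Id3-null heart, and its other probe set gave -0.22. Gpr22, an orphan receptor of heart muscle, was at 6.42 in Id1-null and 6.47 in Id cKO against 7.86 in Id3-null and 7.37 in WT. Fgf16, a growth factor of heart muscle, was at 6.73 and 6.90 against 7.92 and 7.56. In both, the Tie2Cre hearts were the low ones. Amy1, salivary amylase, was at 6.21 and 5.42 against 7.40 and 7.50. Its probe set was annotated to Amy1 alone, and whether the probes also match related amylase genes was not checked. Nxpe4 (4.93), Gramd1b (6.22), a sterol transfer protein, and Sh3rf2 (6.95) were lowest in Id1-null, with the other 3 hearts at 6.21 to 6.55, 7.40 to 7.58 and 7.49 to 8.17. Lbh, a regulator of heart development, was at 9.73 against 10.95 in Id3-null, 10.32 in WT and 10.45 in Id cKO. Akap5, which anchors protein kinase A, was high in Id3-null (6.88) and between 5.37 and 5.76 on the other 3 like-scaled arrays. Mid1ip1, which promotes fatty acid synthesis, was at 9.25 against 10.44, and its other probe set gave -0.12. Lsmem1 and Slc26a10 were lower by 1.07 and 1.06.

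**Figure D4:**
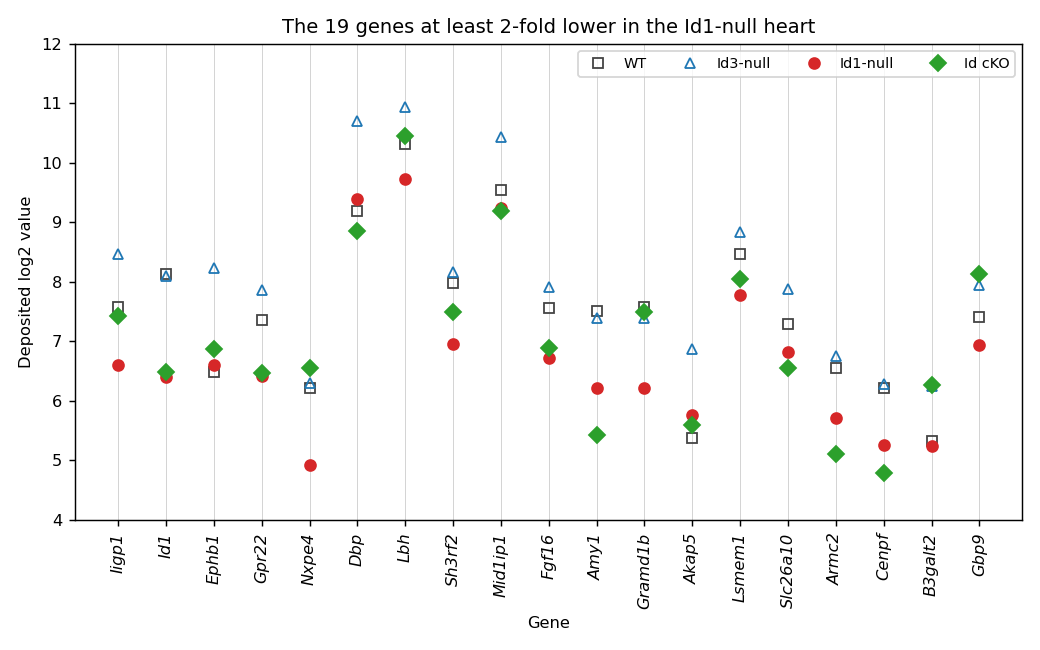
Deposited log2 levels of the 19 genes at least 2-fold lower in Id1-null, ordered by difference, on the 4 like-scaled arrays. Dbp, Ephb1, Akap5 and Mid1ip1 have a high Id3-null heart, while Nxpe4, Gramd1b and Sh3rf2 have a low Id1-null heart.

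None of the compared neighbours of Id1 or Id3 on the chromosome was 2-fold apart, where 1.21% of all compared genes were. With so few neighbours compared, a count of none is not read as a result about them. Of the 60 RefSeq genes nearest to Id1 on chromosome 2, 30 on each side, 38 were on the array and 21 were compared (median -0.04). They ran from -0.48 for Commd7 to 0.72 for Cox4i2, a cytochrome oxidase subunit whose locus is the 3rd from Id1. Around Id3 on chromosome 4, 33 of 60 were on the array and 22 compared (median -0.03), from -0.55 for Zfp46 to 0.23 for Luzp1.

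With WT and Id cKO beside the compared pair, a level can be read along the Id alleles. This reading was chosen after the values were seen. It reuses the difference between the compared hearts, as each gene counted had to pass the limit between Id1-null and Id3-null. It is thus a description only. For 15 genes of 11708 (0.128%) both hearts with Tie2Cre and mutant Id1 (Id1-null and Id cKO) were at least 2-fold over both others, and for 2 (0.0171%), Id1 and Amy1, at least 2-fold under. The 15 held Nppa, with a gap of 2.42 between the nearest hearts of the 2 sides, Acta1 (2.01), Tfrc (1.59) and Myh7 (1.20). They also held the matrix genes Mgp (1.27), Col1a1 (1.19), Postn (1.16), Mfap5 (1.12), Sfrp2 (1.10) and Adamtsl2 (1.04), of which Mgp keeps vessel walls free of mineral and Sfrp2 binds Wnt proteins. Nts (1.26), Zdhhc2 (1.17), Fgl2 (1.16), Myl9 (1.13) and Gnao1 (1.02) completed them. Myl7, Myl4, Car3 and Adipoq were not among them, as Id cKO was low for each. For the 2 hearts without Id3 (Id3-null and Id cKO) no gene was 2-fold over both others and 4 (0.0342%) were 2-fold under. These were Id3 itself, Ppargc1a (-1.27), the cysteine dioxygenase gene Cdo1 (-1.10) and the alcohol dehydrogenase gene Adh1 (-1.08). With a limit of 1.5-fold, 73 genes (0.624%) were over and 19 (0.162%) under along Id1, and 9 (0.0769%) over and 19 (0.162%) under along Id3. Gja1 and Nrp2 were among the 9, and Pdk4, Agt, Mt2 and Timp4 among the 19. Along Id1 the split is also the split by Tie2Cre, and these cannot be told apart. Of the hearts on its other side, WT alone had the male pattern and Id3-null alone had another date code. Along Id3 the 2 hearts of each side differ from each other in Id1 and in Tie2Cre.

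**Figure D5:**
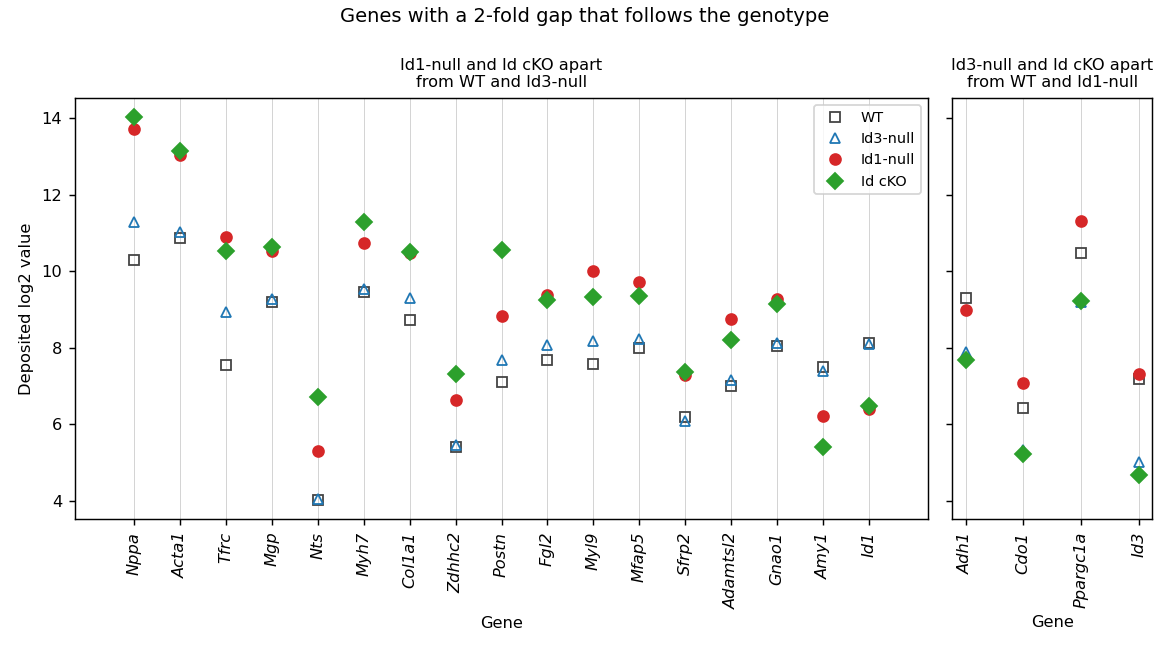
Deposited log2 levels on the 4 like-scaled arrays of the genes whose gap between genotypes was at least 2-fold. On the left the filled symbols (Id1-null and Id cKO) lie over the open ones for 15 genes and under them for Amy1 and Id1, and on the right Id3-null and Id cKO lie under WT and Id1-null for 4 genes.

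A pair of hearts that shares no array with the compared pair is Id cKO and WT, where 364 of 11478 genes (3.17%) were 2-fold apart, 253 higher (2.2%) and 111 lower (0.967%). Over the 11014 genes compared in both pairs, 92 were higher in Id1-null than Id3-null and 221 higher in Id cKO than WT, and 25 were in both sets, 27.2% of the former and 11.3% of the latter. Another 11 of the 92 were 2-fold lower in Id cKO. The 25 included Col1a1, Col1a2, Col3a1, Postn, Thbs1, Vcan, Comp, Nppa, Acta1, Myh7, Tfrc and Asns. Of lower genes 18 and 105 were counted, with Amy1, Armc2, Cenpf and Id1 in both. The 4 probe sets of Armc2 disagreed, with differences from -1.04 to 0.06 in the compared pair. Both pairs set a Tie2Cre heart with mutant Id1 against one with intact Id1 and no Tie2Cre in its label. Id cKO and WT also differ in Id3 and in sex, as Id cKO had the female pattern (Xist 8.62, Eif2s3y 2.95). Across the genes the differences of the 2 pairs had a Pearson r of 0.15, given as a description, since all points come from the same 4 arrays. The other such pair, IGFBP3-treated and untreated Id cKO, had 97 of 7474 genes apart (1.3%), 37 higher (0.495%) and 60 lower (0.803%). Centring on the medians raised both of these arrays against the fixed floor, so 11434 genes were compared, 92 of them higher and 46 lower. After quantile normalisation 27 were higher and 87 lower, and with a lowess trend removed 26 and 89. Over the 7421 genes compared in both pairs as deposited, 66 were higher in Id1-null than Id3-null, and 36 were higher and 58 lower with IGFBP3. None of the 66 was among the 36, and 3 were among the 58. With sets this small, neither count is read as a result.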

How the data were processed

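RNA of 6 mouse hearts, 300 ng each, was hybridised to Affymetrix Mouse Gene 1.0 ST arrays, per the labels' protocols. The authors deposited log2 values for 35557 probe sets, made with Affymetrix Expression Console and RMA per the submitters' processing notes. Versions and genome build: not given in the sources used here. Of the probe sets, 21789 with 1 gene symbol in the platform annotation were used, and 1621 with several and 12147 with none were left out. For 999 genes with several probe sets the brightest on average was used. Sample titles gave the groups, 1 array each, so differences and counts carry no test, and the number of arrays limits the precision. The counting step was tested on simulated data. The 2-fold limit is that of the study's design text. The members and the 51 gene lists were chosen with earlier results of these data known. Named were Id1, Id3, Igfbp3, the 15 genes furthest up and down without clone-named loci and small RNAs, list members that were 2-fold apart or among the 4 furthest from 0, defining markers, and neighbours of Id1 and Id3. Other genes, such as Sbk2, Myl9 and those of the genotype reading, were named after their values were seen. Other scalings, floors, fold limits and probe-set rules were tried. Python 3.11.15, pandas 2.3.3, numpy 2.4.6 and statsmodels 0.14.6 were used.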

Additional observations from a re-analysis of the deposited data

How the results depend on the processing

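Of 66 counts recomputed over 6 results, 45 stayed within 1.5 times. The 21 others came from the floor or the fold limit, by construction fewer or more genes. Between Id1-null and Id3-null, 68 genes were higher and 8 lower with a floor of 8, 75 were higher where both values had to reach 6, 388 were higher and 151 lower at 1.5-fold, and 39 and 3 at 3-fold. Between Id1-null and WT the count was 115 with a floor of 8, 827 at 1.5-fold and 59 at 3-fold, and between Id3-null and WT 37, 361 and 10. Between Id cKO and WT it was 223, 1181 and 98. For the incubated pair it was 39 with a floor of 8, 178 with none, 62 where both values had to reach 6, 1076 at 1.5-fold and 1 at 3-fold. Its 37 higher and 60 lower genes of 7474 stood against 92 and 46 of 11434 on centred arrays, where more genes reached the floor. After quantile normalisation there were 27 and 87, and with a lowess trend removed 26 and 89. Along the genotypes, chosen after seeing the data, Id1 gave 73 and 3 higher genes at 1.5-fold and 3-fold, 19 and 1 lower, and 1 lower with a floor of 8. Id3 gave 9 higher at 1.5-fold, and 19 and 1 lower at 1.5-fold and 3-fold, and 2 lower with a floor of 8. Of 288 recomputed gene differences over 72 results, 286 kept their direction and side of 2-fold. Ephb1 (-0.93) and Mid1ip1 (-0.65) dropped under it with the median of their probe sets. For a gene with 1 probe set that median is the same value by construction, so its agreement there is no check. Of 363 list medians, 335 stayed, 26 moved and 2 turned. Those that moved included white fat (1.20 to 0.09 with a floor of 8 or both values at 6), epicardial (0.60 to 0.08 with both at 6), endocardial (0.60 to 1.13 with a floor of 8) and nerve genes (0.47 to 0.006 with no floor). Those that turned were helix-loop-helix genes with a floor of 8 (-0.080) and chemokines with no floor (-0.060). The cause was not tested. No paired analysis was possible because the labels give no replicate numbers and each genotype has 1 array.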

Other observations

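A pair of genes known from pigment cells, Mlana and Dct, was named after their values were seen. Mlana, a melanosome protein, was at 7.27 in Id1-null against 5.81 in Id3-null, 5.92 in WT and 6.44 in Id cKO, and Dct, an enzyme of melanin synthesis, at 7.09 against 6.04, 6.56 and 6.61. Cdh19, a cadherin of Schwann cells and their precursors, was at 6.35 against 5.26, 5.51 and 4.61, while the neural crest factor Sox10 differed by 0.02.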
